A study of Mus musculus with 4 samples.

Results

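HSC-like cells with Vwf transcript were 667 single bone marrow cells, selected on their own transcripts from 14915 kept cells of 4 pools. A cell was kept when its log total UMI count (UMI, unique molecular identifier, 1 per captured transcript) lay within 2 SD of the mean of its pool. Of these, 1883 cells held a UMI for at least 3 of the 6 stem cell genes Hlf, Mecom, Fgd5, Hoxb5, Ctnnal1 and Tcf15 and no UMI for Cd48 or Flt3, which mark multipotent progenitors, and are called HSC-like below. The 667 cells were those chosen by at least 1 UMI of Vwf, and the other 1216 HSC-like cells held none. Levels of these 9 genes are therefore a description of the choice and were not tested.

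Hematopoietic stem cells (HSCs) renew themselves and give rise to every blood lineage. Vwf encodes von Willebrand factor, a large glycoprotein made by megakaryocytes and endothelial cells that tethers platelets to damaged vessel walls. Vwf transcript is also present in a subset of HSCs that is known for a bias to platelets, and this subset expands in old mice.

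All mice were C57BL/6-CD45.2 males with no transgene or treatment. Young mice were 2 to 3 months old and aged mice were 17 to 18 months old. Lineage-depleted marrow was sorted for Sca-1 and c-Kit with Flt3-positive cells excluded, pooled over 2 mice (young A), 3 mice (young B), 3 mice (aged A) and 2 mice (aged B), and captured with the 10x 3′ v2 chemistry. Both A pools were processed at the HalioDX facility and both B pools at TGML. Each pool is 1 library, so there were 2 pools per age, and the spread between them covers mice and facility alike. For young B and aged A, the free-text description gives the opposite age, while title and source name give the same age and were followed. Where 4 values follow each other below, they stand in the order young A, young B, aged A, aged B.

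Most Vwf-positive cells held a single Vwf UMI. Of the 667 cells, 434 held 1, 158 held 2 and 75 held 3 or more, up to 7. The stem cell threshold was met by 482 cells with 3 of the 6 genes, 157 with 4, 25 with 5 and 3 with all 6. Just outside the choice lay 865 Vwf-positive kept cells with 2 of the 6 genes and 37 cells that met both thresholds but held Cd48 or Flt3. Cells with exactly 3 of the genes had a median of 5882, 6327, 7176 and 11774 UMIs in the 4 pools. Those with 2 of the genes had 6275.5, 7159, 6042 and 9243.5. Vwf itself is on chromosome 6 from 125546774 to 125686679 (GRCm38, plus strand), and its level in the chosen cells was 157, 155, 183 and 134 CPM, the UMIs of a gene scaled to a common total.

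The name was checked against genes that the choice did not use. Procr, the endothelial protein C receptor used to enrich HSCs, stood at 181, 201, 224 and 246 CPM in the Vwf-positive cells of the 4 pools. In the other kept cells of the same pools it stood at 95.4, 116, 182 and 196 CPM, so it was higher in the Vwf-positive cells in all 4 pools. Slamf1, which encodes the HSC surface antigen CD150, was 3.27 and 6.28 times as high as in the other kept cells of young A and young B, but 1.27 and 0.898 times as high in aged A and aged B. Cd34, which is low in long-term HSCs, was 0.375, 0.466, 0.627 and 0.656 times as high, and Mpo, a granulocyte enzyme, 0.118, 0, 0.181 and 0.0467 times as high. Procr, Slamf1, Cd34 and Mpo stood on the stem cell side in the young pools, while in aged B Slamf1 did not. Of other neutrophil genes, Elane and Ctsg were at most 0.233 times as high. Prtn3 was 0.740, 1.01, 1.03 and 1.02 times as high, so it was lower in young A only. Gstm1 was 1.36, 1.36, 1.11 and 1.15 times as high. Cdh5, a defining gene of endothelial cells, had no UMI in any Vwf-positive cell, and neither had Gp6, a defining gene of platelets, but both were near 0 in the other kept cells too (0.361 CPM at most). Other genes of the same lists were present. Gp9, a platelet glycoprotein, stood at 52.3, 91.3, 66.3 and 84.2 CPM in Vwf-positive and 50.1, 44.6, 62.6 and 84.2 CPM in the other kept cells, and Eng, the endothelial receptor endoglin, at 146, 110, 160 and 105 CPM against 91.3, 89.8, 132 and 98.2 CPM.

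Vwf-positive cells made up a larger part of the HSC-like cells in the aged pools. They numbered 61 of 455 HSC-like cells in young A (13.4%, exact 95% binomial interval 10.4% to 16.9%) and 15 of 92 in young B (16.3%, 9.42% to 25.5%). In aged A they numbered 301 of 763 (39.4%, 36% to 43.0%) and in aged B 290 of 573 (50.6%, 46.4% to 54.8%). The ages did not overlap, and the mean was 14.9% in young and 45% in aged pools, a difference of 30.2 percentage points. Of all kept cells they were 1.18% and 0.668% in young A and young B and 9.04% and 6.98% in aged A and aged B. With 2 pools against 2 an exact two-sided permutation test cannot give a p below 0.33, which is the value obtained for either share, so these are descriptions. The intervals cover counting error only. Over all kept cells, HSC-like or not, a Vwf UMI was held by 5.55%, 5.48%, 28.5% and 36.6% in the 4 pools. The higher share in aged pools was thus not particular to HSC-like cells.

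Vwf-positive cells also had more UMIs than Vwf-negative ones in 3 of the 4 pools. Those of aged B had a median of 11886 UMIs against 7752 in the Vwf-negative HSC-like cells of that pool. The medians were 7452 and 6067.5 in aged A, 6447 and 6065.5 in young A and 6327 and 6373 in young B. When each cell was thinned to 3000 UMIs and the choice repeated, 11, 2, 53 and 15 Vwf-positive cells were left in the 4 pools. They were 8.73%, 8.70%, 21.4% and 15.8% of the HSC-like cells, so the aged pools stayed higher and the difference between the mean shares was 9.87 percentage points. The interval of young B, 2 of 23 cells, then ran over the values of both aged pools. Thinning left out 0, 50, 176 and 4 kept cells with fewer than 3000 UMIs.

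**Figure D1:**
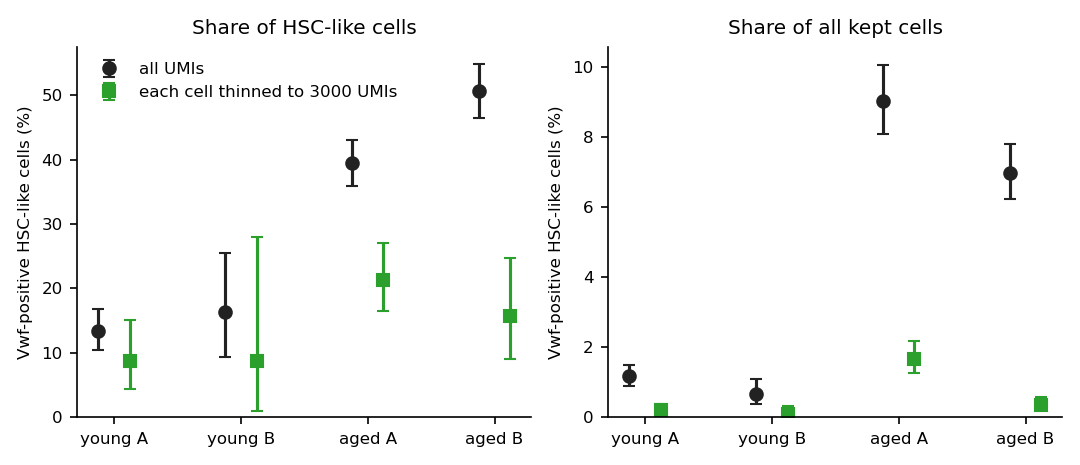
Vwf-positive HSC-like cells as a percentage of HSC-like cells (left) and of all kept cells (right) in each pool, with all UMIs (circles) and with each cell thinned to 3000 UMIs (squares). Bars are exact 95% binomial intervals. With all UMIs, the aged pools lie at 39.4% and 50.6% of HSC-like cells and the young pools at 13.4% and 16.3%, and thinning lowers every point.

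Free Vwf RNA in the droplets was read in cells that should lack the gene. Cells with all 5 of the neutrophil genes Mpo, Elane, Prtn3, Ctsg and Ms4a3 held a Vwf UMI in 3 of 88 (3.41%), 0 of 26 (an exact upper bound of 13.2%), 4 of 53 (7.55%) and 3 of 25 cells (12%) of the 4 pools. Their median depths were 11898, 13751.5, 11793 and 12916 UMIs, above those of HSC-like cells. Of all kept cells, 5.55%, 5.48%, 28.5% and 36.6% held a Vwf UMI. The HSC-like shares lay above the neutrophil-like ones in every pool. A wider group with at least 3 of the 5 genes held Vwf in 3.85%, 2.60%, 29.8% and 11.5% of cells, and 67.6% of these cells in aged A also held Hlf, so that group was not free of cells with stem cell transcripts. The cells with all 5 genes held Hlf in 20.5%, 15.4%, 22.6% and 16% of cases in the 4 pools, so they were not free of them either. No cell barcode was shared between the Vwf-positive cells of any pair of pools, and 103 were shared between kept cells over all pairs. Doublets were handled only by the limit on total UMIs.

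Vwf-positive and Vwf-negative HSC-like cells differed little. Counts were summed per pool and class and compared with edgeR's quasi-likelihood test with pool as a block (Benjamini-Hochberg adjusted p below 0.05 called). Of 10186 genes tested, 27 were called (0.265%), 21 higher (0.206%) and 6 lower (0.0589%) in Vwf-positive cells. Of the called genes, 7 of the 21 and 4 of the 6 moved the same way in all 4 pools. DESeq2 called none at the same threshold (83 genes at an unadjusted p under 0.05), and edgeR without the block for pool called none (28 genes). With the block, edgeR gave every gene the same spread, a dispersion of 0.00133, which is close to counting error and does not allow for genes whose counts sit in few cells. Leaving out the cell with the most UMIs of a gene in each sum kept 17 of the 27 calls, and leaving out aged A kept 5 (24 genes called without young A, 36 without young B and 13 without aged B). In cells thinned to 3000 UMIs, where young B had too few cells to be included and 3013 genes were tested, 1 of the 27 was called, Klf2.

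The genes that were higher in every pool included Clu, Apoe, Sult1a1, Sdpr, Cldn5 and Mfap2. Clu, which encodes the secreted chaperone clusterin (chromosome 14 from 65968483 to 65981547), stood at 13.6, 38.4, 168 and 215 CPM in Vwf-negative cells of the 4 pools. In Vwf-positive cells it stood at 47.9, 119, 241 and 242 CPM. As a ratio the step was thus larger in the young pools. The log2 fold change over all pools was 0.41 ± 0.07 (SE, edgeR adjusted p = 6.2e-05), and 0.65 without aged B. The young values rest on 22 UMIs in 12 cells and 13 UMIs in 3 cells.

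Sult1a1 is a cytosolic sulfotransferase. It went from 47.6, 62.9, 259 and 396 CPM in Vwf-negative cells to 124, 192, 323 and 406 CPM in Vwf-positive cells (log2 0.28 ± 0.07, edgeR adjusted p = 0.012, and 0.52 without aged B). It rose most in the young pools and hardly at all in aged B. Apoe, the lipid carrier apolipoprotein E, had 643, 634, 1298 and 1708 CPM in Vwf-negative and 889, 1168, 1477 and 1845 CPM in Vwf-positive cells (0.27 ± 0.05, edgeR adjusted p = 0.00021). Apoe was also called in cells below the median UMI of the HSC-like cells of their pool (log2 0.22, a fit without young B, which had too few such cells) and with its top cells left out (0.27), and so was Cldn5 (0.54 and 0.46).

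Sdpr, which encodes the caveola coat protein also named Cavin2, had 27.3, 22.7, 176 and 153 CPM in Vwf-negative and 37.0, 54.8, 214 and 188 CPM in Vwf-positive cells (log2 0.31 ± 0.08, edgeR adjusted p = 0.025). Cldn5, a tight junction protein of endothelial cells, rose from 5.95, 1.75, 105 and 171 CPM to 6.54, 54.8, 167 and 213 CPM (0.49 ± 0.08, edgeR adjusted p = 3.8e-06). The value of young B came from 6 UMIs in 1 cell, and in young A Cldn5 had 3 UMIs, so its difference was measured in the aged pools. In aged A, Cldn5 stood at 105 CPM in cells with no Vwf UMI, 142 with 1 and 211 with 2 or more, and in aged B at 171, 206 and 221. Mfap2, a microfibril protein, was low throughout, at 11.5, 15.7, 16.2 and 12.4 CPM in Vwf-negative and 39.2, 27.4, 21.4 and 21.3 CPM in Vwf-positive cells (0.81 ± 0.20, edgeR adjusted p = 0.031). Each of the 6 genes kept its direction with any 1 pool left out. Without aged A, Apoe was called (0.33) and Clu (0.35), Sult1a1 (0.31), Sdpr (0.33), Cldn5 (0.36) and Mfap2 (1.09) were not. Without young A, Apoe (0.21), Sult1a1 (0.20) and Mfap2 (0.60) were not called, and without aged B, Sdpr (0.33) and Mfap2 (0.83) were not.

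Sequence upstream of Cldn5, Sdpr and Sult1a1 is shown because these 3 genes were called higher both in Vwf-positive against Vwf-negative cells and in aged against young Vwf-positive cells. Clu, Igkc, Ighm, Jchain and Klf2 were also called in both and are not shown. Each line holds the 250 bases before the RefSeq start (GRCm38.p6, 5′ to 3′ on the strand of the gene), chr16:18776597-18776846 on the plus strand, chr1:51288876-51289125 on the plus strand and chr7:126676419-126676668 on the minus strand. Capitals mark matches to a GATA motif, spelled AGATAA, or to an ETS motif, spelled AGGAAG, on either strand.
Cldn5: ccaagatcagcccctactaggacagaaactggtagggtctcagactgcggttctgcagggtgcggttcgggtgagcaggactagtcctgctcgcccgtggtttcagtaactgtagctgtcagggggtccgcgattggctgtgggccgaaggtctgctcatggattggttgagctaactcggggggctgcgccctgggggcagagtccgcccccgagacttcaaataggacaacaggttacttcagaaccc
Sdpr: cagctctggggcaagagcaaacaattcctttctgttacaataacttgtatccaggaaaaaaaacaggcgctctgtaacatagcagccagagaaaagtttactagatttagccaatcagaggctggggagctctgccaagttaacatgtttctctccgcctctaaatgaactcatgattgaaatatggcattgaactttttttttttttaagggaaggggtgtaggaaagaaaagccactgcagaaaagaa
Sult1a1: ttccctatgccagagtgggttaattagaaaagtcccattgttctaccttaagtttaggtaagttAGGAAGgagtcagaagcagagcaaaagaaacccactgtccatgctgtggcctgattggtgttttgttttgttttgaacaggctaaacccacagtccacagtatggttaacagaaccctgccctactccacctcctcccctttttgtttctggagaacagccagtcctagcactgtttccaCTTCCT
Only Sult1a1 held a match, 2 of the ETS letters. Of 32851 RefSeq promoters of the same length, 9.99% held the GATA letters and 29.5% the ETS letters. A match is a description of the letters and no site.

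The genes that were lower in every pool were Ctla2a, Cmtm7, Rgs2 and the uncharacterised transcript 4930519L02Rik. Ctla2a, which encodes a cysteine protease inhibitor, fell from 584, 701, 526 and 480 CPM in Vwf-negative cells of the 4 pools to 346, 630, 423 and 458 CPM in Vwf-positive cells. The difference was -0.28 ± 0.06 on the log2 scale (edgeR adjusted p = 0.00056), and -0.43 without aged B. Cmtm7, a membrane protein with a MARVEL domain, fell from 673, 823, 493 and 618 CPM to 449, 657, 425 and 590 CPM (-0.23 ± 0.06, edgeR adjusted p = 0.012, and -0.36 without aged B). In both genes the step was smallest in aged B, and without young A neither was called (-0.19 and -0.16). Rgs2, a regulator of G protein signalling, fell from 63.7, 48.9, 85.7 and 32.9 CPM to 58.8, 36.5, 59.8 and 20.5 CPM (-0.49 ± 0.12, edgeR adjusted p = 0.031). In thinned cells, without young B, its value was 0.53 and not called. Sox4, a transcription factor of lymphoid and multipotent progenitors, was called (-0.43 ± 0.08, edgeR adjusted p = 8.3e-05), with 378, 124, 210 and 55.7 CPM in Vwf-negative and 198, 54.8, 161 and 56.5 CPM in Vwf-positive cells, so that it was lower in 3 pools and level in aged B (-0.28 without young A, not called). Without aged A, Sox4 was called (-0.51), and Ctla2a (-0.30), Cmtm7 (-0.28), Rgs2 (-0.47) and 4930519L02Rik (-0.38) were not.

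**Figure D2:**
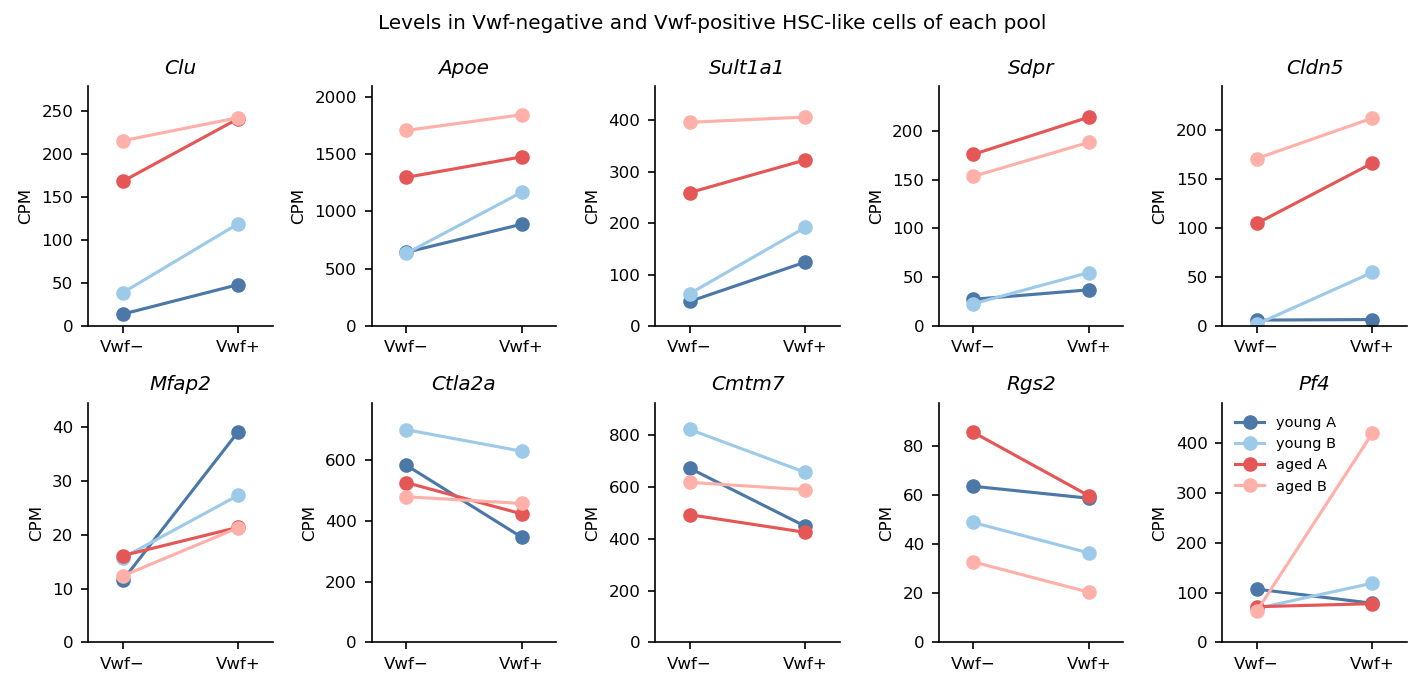
Level of 10 genes in CPM (linear axes from 0) in the summed Vwf-negative and Vwf-positive HSC-like cells of each pool, joined by a line per pool. Clu, Apoe, Sult1a1, Sdpr, Cldn5 and Mfap2 rise and Ctla2a, Cmtm7 and Rgs2 fall in all 4 pools, while the rise of Pf4 from 62.6 to 419 CPM is in aged B.

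The megakaryocyte and platelet program differed by small amounts between the classes. Of 37 listed genes 29 were tested, 3 were called higher (Pf4, Clu and Sdpr) and 0 lower, with a median log2 fold change of 0.13 beside 0.00 over all genes tested. At an unadjusted p under 0.05 edgeR gave 11 of the 29, beside 563 of all 10186 genes tested. Summed over the list, Vwf-positive cells held 2013, 1962, 3340 and 3246 CPM in the 4 pools, and Vwf-negative cells 1834, 1579, 3216 and 2624. The most abundant member was Nrgn, or Cd9 in young B, and 5, 13, 3 and 4 of the 36 genes in the files had no UMI in the Vwf-positive cells. Pf4, platelet factor 4, stood at 107, 68.1, 71.5 and 62.6 CPM in Vwf-negative and 78.4, 119, 77.6 and 419 CPM in Vwf-positive cells (log2 1.35 ± 0.08, edgeR adjusted p = 3.6e-57). Without aged B its log2 fold change was 0.02. In aged B, Pf4 was in 109 of 290 cells, and 1 cell held 354 of its 1453 UMIs. Itga2b, integrin CD41 of early megakaryocyte cells, was not called (0.41, adjusted p = 0.27), and Gp9 was at 0.13 and not called. At least 2 of 8 megakaryocyte markers were found in 29.5%, 26.7%, 35.5% and 42.4% of Vwf-positive cells and in 26.9%, 19.5%, 29.7% and 33.2% of Vwf-negative ones. Without all such cells 14 genes were called, 12 of them among the 27. In cells thinned to 3000 UMIs, at least 2 markers were found in 18.2%, 0%, 9.43% and 0% of the 11, 2, 53 and 15 Vwf-positive cells. In thinned Vwf-negative cells the shares were 6.09%, 4.76%, 8.21% and 6.25%, so at equal depth the order held in young A and aged A only.

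Stem cell genes outside the choice gave 1 call higher, Sult1a1, among 38 tested, with a median log2 fold change of 0.04. Procr (0.09) and Slamf1 (0.05) were not called. Slamf1 stood at 16.1 against 32.7 CPM and 26.2 against 54.8 in the young pools, and at 46.5 against 52.2 and 50.6 against 41.3 in aged A and aged B. Of 18 tested genes of multipotent progenitors and lymphoid priming, Ighm was called higher and Sox4 lower (median -0.09). Of 19 tested genes for storage, binding and cleavage of the Vwf protein, 0 were called by edgeR, with a median of 0.03. At an unadjusted p under 0.05 were 2 of the 19, beside 563 of all 10186 genes tested. The lists of interferon response (16 tested), MHC class I (14), oxidative phosphorylation (20), cyclins and inhibitors (14), and of erythroid (7), neutrophil (5), mast and basophil (3), T and innate lymphoid (3) and macrophage and dendritic cells (6) gave no call by edgeR either, with 0 to 4 genes of each at an unadjusted p under 0.05. The endothelial list had 1 call, Cldn5, among 9 tested, and the immediate-early list 1, Klf2, among 14.

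A few division genes were higher in Vwf-positive cells of 3 pools and lower in those of young B. Of 26 listed genes of division and replication, all tested, 4 were called higher (Cenpf, Mki67, Birc5 and Ccnb2) and 0 lower, with a median of 0.11. Their sum was 1374, 904, 941 and 856 CPM in Vwf-positive cells of the 4 pools, and 1558, 1127, 832 and 610 CPM in Vwf-negative ones, so it was lower in both young pools and higher in both aged pools. Cenpf, a kinetochore protein of dividing cells, stood at 67.5, 9.13, 36.8 and 45.6 CPM against 39.2, 34.9, 14.8 and 18.9 CPM (log2 1.08 ± 0.15, edgeR adjusted p = 1.2e-09). Its counts lay in 7 of 61, 1 of 15, 16 of 301 and 29 of 290 cells. In young B, Mki67 and Ccnb2 had no UMI in Vwf-positive cells, against 17.5 and 36.7 CPM in Vwf-negative ones, and Birc5 stood at 27.4 against 59.4 CPM. Cenpf was called with any 1 pool left out. Birc5, survivin of the mitotic spindle, was at 0.62 on the log2 scale, 0.20 without aged B and 0.04 without cells that held 2 or more megakaryocyte markers. Mki67 and Ccnb2 were not called without aged A (0.61 and 0.51) or without aged B (0.72 and 0.24). Without those cells none of the 4 genes was called (Cenpf 0.62, Mki67 0.27 and Ccnb2 0.15). In cells at or above the median UMI of the HSC-like cells of their pool, a fit without young B, Cenpf was called (0.81) and Mki67 (0.65), Birc5 (0.41) and Ccnb2 (0.24) were not. None of the 4 genes passed the filter on low counts in thinned cells.

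Among HSC-like cells, B and plasma cell transcripts were highest in aged A. Igkc, an antibody light chain, stood at 675 CPM in Vwf-negative and 2631 CPM in Vwf-positive cells of that pool. In HSC-like cells of the other pools it stood at 45.6 to 75.8 CPM. In all kept cells other than the Vwf-positive HSC-like ones it stood at 378, 262, 3212 and 1857 CPM in young A, young B, aged A and aged B. High Igkc was thus neither particular to the Vwf-positive cells nor, over all kept cells, to aged A. In aged A, 448 of 462 Vwf-negative and 297 of 301 Vwf-positive cells held an Igkc UMI, while a single Vwf-positive cell held 4872 of its 6508 UMIs. Top cells also held 1329 of the 1548 UMIs of Ighm and 438 of the 663 of Jchain. All 3 were called higher (log2 1.40, 2.48 and 1.55), and with the top cells left out the log2 fold changes were -0.063, -0.049 and 0.12 and none was called. The defining B cell gene Cd79b stood at 48.9 CPM in the Vwf-positive cells of that pool and 45.8 CPM in the Vwf-negative ones.

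**Figure D3:**
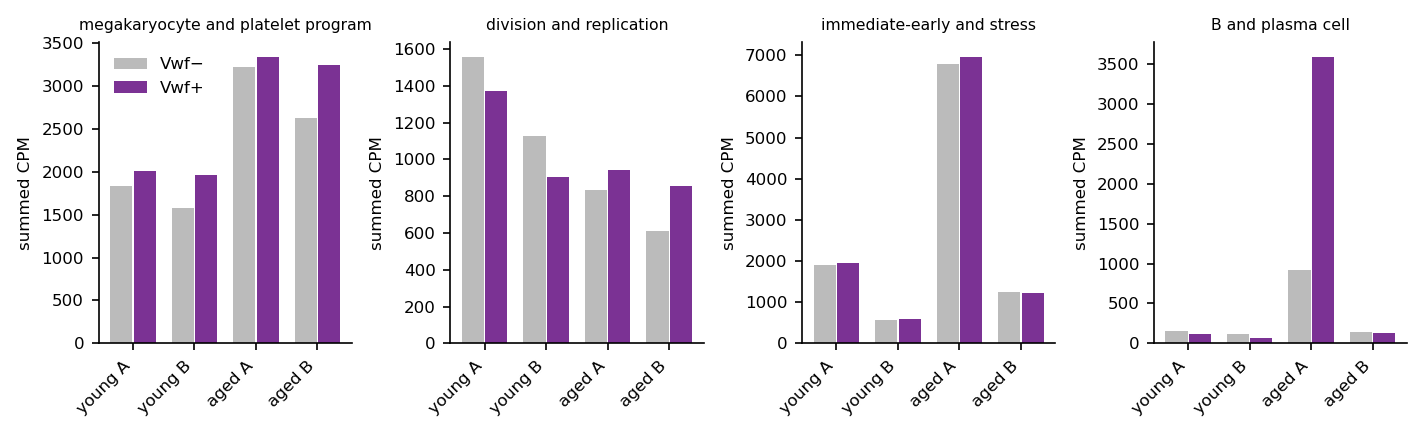
Summed CPM of 4 gene lists in Vwf-negative (grey) and Vwf-positive (purple) HSC-like cells of each pool, on linear axes from 0. Megakaryocyte genes are higher in the aged pools in either class, the immediate-early and B and plasma cell lists stand out in aged A, and division genes go from 1558 and 1127 CPM in young to 832 and 610 CPM in aged Vwf-negative cells.

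The next comparison asked which genes changed with age within the Vwf-positive cells. Aged and young pools were compared with edgeR with facility as a block. Of 9282 genes tested, 88 were called (0.948%), 77 higher (0.83%) and 11 lower (0.119%) in aged cells, and 64 of the 77 and 9 of the 11 moved the same way at both facilities. The sums of the young pools held 61 and 15 cells. DESeq2 called 2 genes, Nupr1 and Ighm (103 genes at an unadjusted p under 0.05), and edgeR without the block called none (259 genes). Without young A 2 genes were called, against 46 without young B, 60 without aged A and 74 without aged B. With 3 pools the block for facility could not be kept, so each fit with a pool left out, here and for the genes below, also lacked the block. In Vwf-negative cells 183 of 10437 genes were called (1.75%), 130 higher and 53 lower. The classes share their pools, so their values are given side by side below with no count of shared genes.

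Nupr1, a stress-induced nuclear regulator, stood at 34.9 and 146 CPM in Vwf-positive cells of young A and young B and at 474 and 597 CPM in those of aged A and aged B. Its log2 fold change was 2.97 ± 0.40 (edgeR adjusted p = 1.7e-10). In Vwf-negative cells it stood at 18.2, 34.9, 410 and 607 CPM (4.29 ± 0.31, edgeR adjusted p = 8.4e-07). The aged classes were close and the young Vwf-positive cells stood above the young Vwf-negative ones, on 16 UMIs in each young pool. Without young A the change was 1.92 and without young B 4.04, and the former was not called.

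Selp, Clca3a1 and Itgb3 rose with age. Selp encodes P-selectin of platelet granules and endothelium and lies on chromosome 1 from 164115264 to 164150026. Its level was 4.36 and 0 CPM in Vwf-positive cells of young A and young B and 128 and 105 CPM in aged A and aged B. It had 2 UMIs in the young and 682 in the aged Vwf-positive cells, a ratio of 32.6 in CPM with a counting interval of 9.0 to 270.1. The log2 fold change was 5.09 ± 0.63 (edgeR adjusted p = 1.1e-12), and 4.19 ± 0.32 in Vwf-negative cells. Clca3a1, a chloride channel accessory protein, went from 1 UMI to 407, a ratio of 39.0 (6.95 to 1543), with 78 and 61.7 CPM in the aged pools. Itgb3, integrin β3 of platelets, went from 1 UMI to 177, a ratio of 16.9 (3.00 to 673). For all 3 genes the young Vwf-negative cells held 3.49 to 6.99 CPM.

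Gstm2, Mt2 and Plscr2 rose as well. Gstm2, a glutathione transferase, had 1 UMI in young and 423 in aged Vwf-positive cells, a ratio of 40.5 (7.23 to 1603). Mt2, a metallothionein, had 2 and 904, a ratio of 43.3 (11.9 to 357.8), with 112 and 181 CPM in aged A and aged B. Plscr2, a phospholipid scramblase, had 2 and 521, a ratio of 24.9 (6.87 to 206.5). In Vwf-negative cells these genes rose by 3.06, 4.03 and 3.68 on the log2 scale and were called too. With 1 or 2 young UMIs the fitted log2 changes depend on the prior count. Without young A they were 10.86 for Selp, 10.11 for Clca3a1, 8.91 for Itgb3, 10.16 for Gstm2, 11.24 for Mt2 and 2.27 for Plscr2, and none was called. Without young B all but Itgb3 were called, and Itgb3 lost its call with any pool left out.

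Clu, Sdpr, Cldn5 and Sult1a1, which were higher in Vwf-positive than in Vwf-negative cells, also rose with age, while Apoe (0.75) and Mfap2 (-0.74) were not called. Clu rose by 1.79 ± 0.37 in Vwf-positive (edgeR adjusted p = 0.00034) and by 3.07 ± 0.30 in Vwf-negative cells. Without young A the former was 1.05, and without young B it was 2.41. Sdpr rose by 2.28 ± 0.39 and 2.67 ± 0.27, Cldn5 by 3.32 ± 0.45 and 4.54 ± 0.38, and Sult1a1 by 1.28 ± 0.35 and 2.51 ± 0.27, in Vwf-positive and Vwf-negative cells (edgeR adjusted p = 0.031 for Sult1a1 in Vwf-positive cells). Without young A none of the 4 was called (Cldn5 1.83), and without young B only Cldn5 was (4.95). Without aged B, Clu (1.64) was not called, and neither was Sult1a1.

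Of the megakaryocyte and platelet list, 4 of 27 tested genes rose with age in Vwf-positive cells (Selp, Itgb3, Sdpr and Clu) and 0 fell, with a median of 0.66 beside 0.07 over all genes tested. In Vwf-negative cells 6 of 29 rose with a median of 0.67. Pf4 in Vwf-positive cells was at 0.85 (adjusted p = 0.58). Of 19 aging genes that the study names, and that it chose on these same samples, 18 were tested and 7 rose in Vwf-positive cells (Nupr1, Clu, Selp, Alcam, Cdkn1a, Cdkn2c and Nr4a1), with a median of 0.87. In Vwf-negative cells 9 of the 18 rose and 1, Cd34, fell, with a median of 1.14. Cdkn1a, the cell cycle inhibitor p21, stood at 8.71, 9.13, 63.9 and 26.0 CPM (2.58 ± 0.62, edgeR adjusted p = 0.0055, and 1.68 without aged A). Cdkn2c, the inhibitor p18, stood at 13.1, 0, 54.6 and 33.2 CPM (2.26 ± 0.59, edgeR adjusted p = 0.018). Neither was called without young A (2.24 and 9.42) or without young B (2.37 and 1.78), and Cdkn2c lost its call with any pool left out. In Vwf-negative cells both rose too (Cdkn1a by 1.83). Of 26 division genes 0 were called by edgeR in Vwf-positive cells, with a median of -0.41, and 6 fell in Vwf-negative cells (median -1.09). At an unadjusted p under 0.05 were 4 of the 26 in Vwf-positive cells, beside 545 of all 9282 genes tested there.

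Cd74, H2-Eb1, H2-Aa and H2-Ab1, genes of antigen presentation by MHC class II, rose with age in Vwf-positive and in Vwf-negative cells. Cd74, the invariant chain, stood at 102 and 91.3 CPM in young A and young B and 410 and 673 CPM in aged A and aged B (log2 2.39 ± 0.38, edgeR adjusted p = 2.8e-07). H2-Eb1, H2-Aa and H2-Ab1 rose by 2.12, 1.65 and 1.51. In Vwf-negative cells the 4 genes rose by 1.45, 1.80, 1.41 and 1.34 (edgeR adjusted p between 0.00096 and 0.0085). In Vwf-positive cells all 4 kept their direction with any pool left out, were called without aged A, and were not called when either young pool was left out. Without aged B, Cd74 alone was called (1.97). These are the 4 called genes among the 6 tested of the macrophage and dendritic list, which was summed at 599, 694, 1245 and 1936 CPM in Vwf-positive cells, with Lyz2 or Cd74 as its most abundant gene. Its myeloid member Lyz2 stood at 331, 420, 441 and 475 CPM, higher in the aged pool at either facility, and was not called (0.35). The macrophage genes C1qa, C1qb and C1qc stood at 13.6, 8.94 and 7.21 CPM in Vwf-positive cells of aged B. In those of the other pools they stood at 0 to 4.36 CPM. Of the interferon response list 1 of 16 rose, Rtp4 (1.39 ± 0.37, edgeR adjusted p = 0.019, 0.90 and not called in Vwf-negative cells, not called when either young pool or aged B was left out), with a median of 0.01.

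Some immediate-early genes, which respond within minutes to signals or handling, rose with age, and the list was highest in aged A. Of 14 tested, 7 were called higher (median 1.48) in Vwf-positive cells, and 9 of 15 in Vwf-negative cells (median 1.56). The list summed to 1947, 584, 6962 and 1222 CPM in Vwf-positive cells of the 4 pools, and to 1892, 568, 6797 and 1236 CPM in Vwf-negative ones. Fos, a transcription factor subunit, stood at 129, 82.1, 1070 and 98.9 CPM (log2 2.12 ± 0.42, edgeR adjusted p = 0.0002), and its log2 change was -0.047 without aged A. In Vwf-negative cells it was 1.78 and not called. Dusp1, a phosphatase of MAP kinases, stood at 74.1, 9.13, 543 and 55.7 CPM, and Jun at 447, 110, 1350 and 434 CPM, so both were higher in the aged pool at either facility, while Fosb, at 41.4, 9.13, 155 and 2.31 CPM, was higher at HalioDX only. The log2 change of Dusp1 was 2.79 (2.78 in Vwf-negative cells), and 0.21 in the fit without aged A, which set aged B against both young pools with no block for facility. Plk2, Klf2 and Nr4a1 stood at 79.6, 230 and 111 CPM in aged A and at 9.52, 3.17 and 11.0 CPM in aged B. Igha, Igkc, Ighm and Jchain were called higher with age and were highest in the same pool, with 209 against 7.21 CPM for Igha in aged A and aged B. In Vwf-negative cells they were called too. For Igkc the change was 4.47 in Vwf-positive cells, and 0.52 without aged A.

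**Figure D4:**
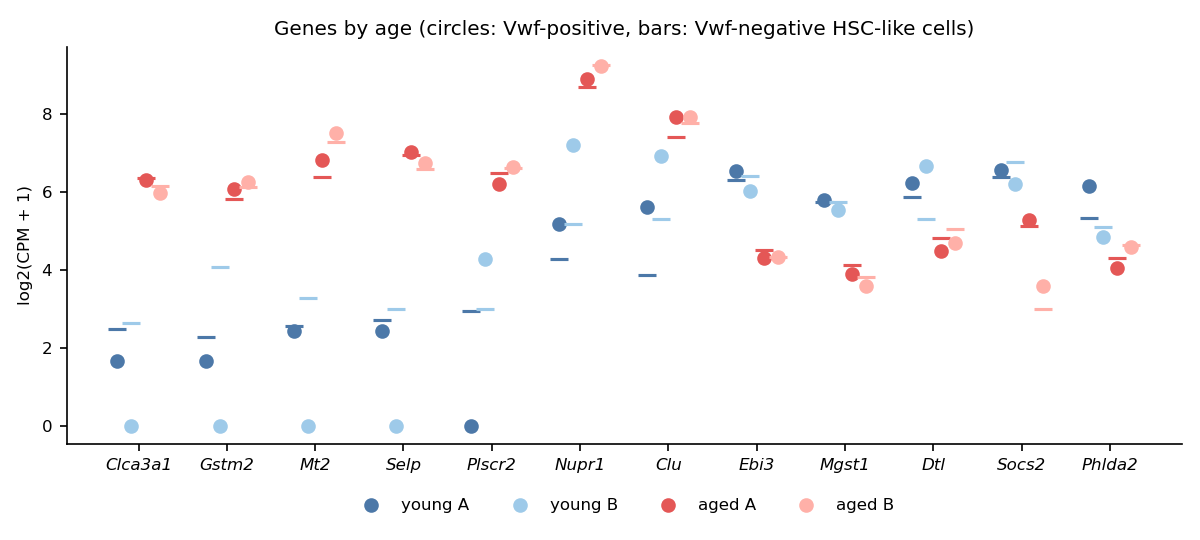
Level of 12 genes as log2(CPM + 1) in the 4 pools, for Vwf-positive (circles) and Vwf-negative (bars) HSC-like cells. Clca3a1, Gstm2, Mt2, Selp, Plscr2, Nupr1 and Clu are higher in both aged pools, Ebi3, Mgst1, Dtl, Socs2 and Phlda2 are lower, and circles and bars of a pool lie close together in the aged pools.

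Genes that fell with age were fewer. Ebi3, a subunit of interleukins 27 and 35, stood at 91.5 and 63.9 CPM in Vwf-positive cells of young A and young B and at 18.6 and 19.0 CPM in aged A and aged B (log2 -2.09 ± 0.40, edgeR adjusted p = 7.7e-05). Mgst1, a microsomal glutathione transferase, went from 54.5 and 45.6 to 13.7 and 11.0 CPM (-2.00 ± 0.48, edgeR adjusted p = 0.0047). Socs2, an inhibitor of cytokine signalling, went from 93.7 and 73.0 to 38 and 11.0 CPM (-1.72 ± 0.40, edgeR adjusted p = 0.003, and -2.84 without aged A). Each of these fell in Vwf-negative cells too (-2.00, -1.84 and -2.34). Dtl, Atad2 and Ncapd3, which act in DNA replication and chromosome condensation, fell by 1.86, 1.79 and 1.87 on the log2 scale, while in Vwf-negative cells the values of -0.78, -0.95 and -1.08 were not called. The test of that difference between classes was not passed for any of the 3 (adjusted p = 0.68, 0.98 and 0.98). Lsp1, a leukocyte actin-binding protein, Nrm, a nuclear membrane protein, and Phlda2, an imprinted growth regulator, fell by 1.32, 1.58 and 1.63 (Phlda2 -0.45 without young A). In Vwf-negative cells their values were -1.03, -1.06 and -0.85, and Phlda2 was not called. With the top cells left out, Ebi3 (-2.07) and Lsp1 (-1.46) were still called among these 9 genes, and without young A none of the 9 was.

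The difference in age change between Vwf-positive and Vwf-negative cells was tested in 1 fit over all 8 sums with a class by age term. Of 10971 genes, 9 were called (0.082%), 8 with a log2 change that was higher, in sign, in Vwf-positive cells and 1, Sult1a1, with one that was lower. This fit too gave every gene the same spread, a dispersion of 0.00161, close to counting error. DESeq2 called none (105 genes at an unadjusted p under 0.05), and edgeR without the block none (289 genes). Sult1a1 differed by -1.23 ± 0.24 (edgeR adjusted p = 0.00046), from the young values of 47.6 against 124 CPM and 62.9 against 192 CPM and the aged ones of 259 against 323 and 396 against 406. Clu (-1.33, adjusted p = 0.11) and Nupr1 (-1.22, adjusted p = 0.35) had differences of like size and were not called. Hmgb2, a chromatin protein of dividing cells, stood at 664, 356, 455 and 454 CPM in Vwf-positive and 724, 580, 406 and 318 CPM in Vwf-negative cells of the 4 pools (0.60 ± 0.13, edgeR adjusted p = 0.0081). It was lower in aged than in young Vwf-negative cells at both facilities, and in Vwf-positive cells only at HalioDX. In thinned cells, without young B, the difference was -0.44 and not called.

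**Figure D5:**
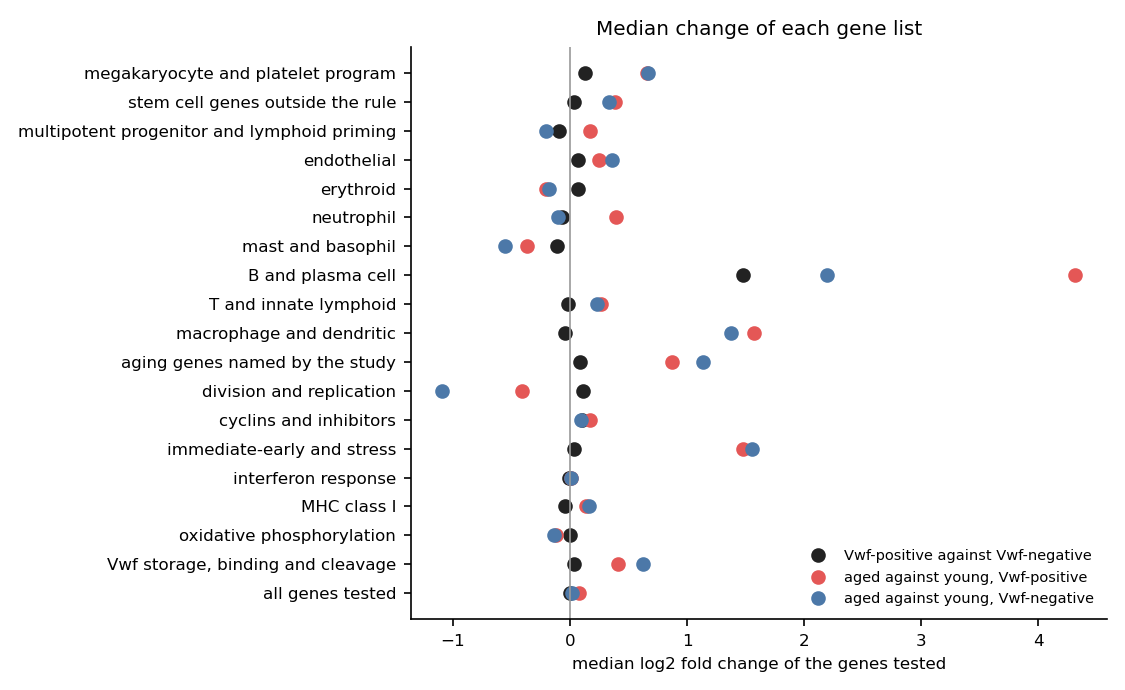
Median log2 fold change of the tested genes of each list, for Vwf-positive against Vwf-negative cells (black), and aged against young in Vwf-positive (red) and Vwf-negative cells (blue). The black points lie near 0 except for the B and plasma cell list (4 genes tested), while the megakaryocyte list stands at 0.66 and 0.67 with age, and division genes at -0.41 in Vwf-positive and -1.09 in Vwf-negative cells.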

How the data were processed

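The deposited matrix of each pool holds raw counts of UMIs, made by the authors with Cell Ranger 2.2.0 on GRCm38 (mm10), per the labels. The files hold 28692 genes. Depth after the filter on total UMIs was 36446168, 16399999, 20788935 and 33286187 UMIs in young A, young B, aged A and aged B.

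The members, the gene lists, tests and alternatives were chosen with earlier results of these data known. The 9 genes of the rule were removed before adjustment. Counts were summed over cells per pool and class and tested with edgeR 4.0.16 in R 4.3.3 (TMM scaling, filterByExpr, quasi-likelihood F test), with DESeq2 1.42.0 as the alternative. Fits needed at least 10 cells per sum. In the fits of class, of class by age and of age in Vwf-positive cells edgeR's prior degrees of freedom were infinite, so p-values rest on a spread shared over genes and not on the spread of each gene between the 4 pools. Genes were named when called and, in either direction, among the 10 most changed of those that moved the same way in every pool or at both facilities with a mean of at least 20 CPM. The called genes of the age by class term, up to 4 called genes per list and the defining genes of lists were added to these. Same-letter pools shared deviations (correlation 0.314 in Vwf-positive and 0.462 in Vwf-negative cells over 9282 genes), and the letter is the facility. Tested on simulated data for Vwf-positive against Vwf-negative cells over 10193 genes, edgeR recovered all 100 simulated 4-fold changes and 82 of the 100 that were 2-fold, and made 7 false calls. For age in Vwf-positive cells over 9289 genes it recovered 55 and 2, with 2 false calls. The simulated counts were drawn with the spread that edgeR had itself estimated from the same sums. They did not model genes whose counts sit in few cells, so they cannot tell how many calls of such genes are false. Gene positions are from GENCODE vM21 on GRCm38. Shares carry exact Clopper-Pearson 95% intervals.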

Additional observations from a re-analysis of the deposited data

Results flagged for a closer look

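The age change of 9 genes differed between Vwf-positive and Vwf-negative HSC-like cells in edgeR's test of the difference itself, given here as the log2 change in Vwf-positive minus that in Vwf-negative cells. Pf4 differed by 1.97, by 0.32 without aged B, and by -1.20 with no filter on total UMI (edgeR adjusted p = 2.5e-10). Igkc and Ighm differed by 1.84 and 2.73, and by 0.24 and 0.26 with the top cell of each gene left out of each sum. Sult1a1 differed by -1.23, and the values without each pool lay between -1.36 and -1.07. The chromatin and division genes Hmgb2, Cdc20 and Ube2c differed by 0.60, 1.52 and 1.21. Ube2c, a ubiquitin enzyme of mitosis, had no UMI in the 15 Vwf-positive cells of young B and was in 7 of the 61 of young A, and its difference was -0.26 without cells with 2 or more megakaryocyte markers. Tubb4b, a tubulin, differed by 0.66 and Nol12, a nucleolar protein, by 1.42. Depth also differed between the classes in the aged pools. In cells thinned to 3000 UMIs, a fit without young B, the term called 0 genes with edgeR (212 at an unadjusted p under 0.05), and Hmgb2 was at -0.44. At 2 or more Vwf UMIs, again without young B, Ighm was at -0.81.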

How the results depend on the processing

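Between the classes edgeR called 27 genes with pool as a block, 0 without the replicate block and 0 with DESeq2. Fits that also lacked young B, for want of cells, called 1 in cells thinned to 3000 UMIs, 14 in cells below and 16 in cells at or above the median UMI. With all pools it called 14 without cells with 2 or more megakaryocyte markers and 17 without each gene's top cell. With 1 pool left out it called 5 to 36. For age in Vwf-positive cells, 88 became 0 without the replicate block, 2 with DESeq2, 53 without megakaryocyte-marked cells and 2 to 74 with 1 pool and the block left out. For age in Vwf-negative cells, 183 became 11 without the block, 35 with DESeq2, 342 with no filter on genes, 40 when thinned, 84 without top cells and 0 to 72 with 1 pool and the block left out. For the age by class term, 9 became 0 without the block, 0 with DESeq2, 5 with no filter on total UMI, 3 without megakaryocyte-marked cells and 2 to 20 with 1 pool left out. The cause was not tested where only the tool changed. Fits of thinned cells and of cells with 2 or more Vwf UMIs lacked young B, which held under 10 cells, and for age in Vwf-positive cells also the block. They called 5 (796 genes tested) and 13 genes with age in Vwf-positive cells, and 0 (212 at an unadjusted p under 0.05) and 7 for the term.

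The difference in share of HSC-like cells was 30.2 percentage points, 14.7 at 2 or more Vwf UMIs, 9.87 when thinned, 42.6 at 4 or more of the 6 genes and 24.6 to 35.8 with 1 pool left out. Of kept cells it was 7.09, and 2.80 at 2 or more Vwf UMIs, 4.27 without megakaryocyte-marked cells, 0.870 when thinned, 15.8 at 2 or more genes, 2.22 at 4 or more and 6.06 to 8.12 with 1 pool left out.

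Of 838 values of 65 named results under alternatives, 403 kept direction and call, 422 kept direction only and 13 reversed. Between the classes Rgs2 turned to 0.53 when thinned. Ighm turned to -0.086 at 2 or more Vwf UMIs, -0.24 below the median UMI and -0.049 without top cells, and ran from -0.031 to 2.62 with 1 pool left out, lowest without aged A. Igkc turned to -0.095 at 2 or more Vwf UMIs and -0.063 without top cells, and ran from -0.25 to 1.67, lowest without aged A. With age, Fos ran from -0.047 to 3.19, lowest without aged A. In the age by class term Pf4 turned to -1.20 with no filter on total UMI (edgeR adjusted p = 2.5e-10), Ube2c to -0.26 without megakaryocyte-marked cells, Ighm to -0.81 at 2 or more Vwf UMIs and Hmgb2 to -0.44 when thinned. The split by depth and the removal of top cells were added after the data were seen.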

Other observations

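Vwf-positive cells with more Vwf UMIs were compared as a description in the aged pools, where each level of Vwf held enough cells. In aged B, Pf4 stood at 62.6 CPM with no Vwf UMI, 282 with 1 and 587 with 2 or more. In aged A it stood at 71.5, 54.9 and 119 CPM, so the order held in aged B only. Clu stood at 168, 226 and 267 CPM in aged A and 215, 236 and 248 CPM in aged B, higher at each step in both. Sult1a1 stood at 259, 315 and 337 CPM in aged A, but at 396, 441 and 364 CPM in aged B. Apoe stood at 1298, 1490 and 1455 CPM in aged A and 1708, 1849 and 1841 CPM in aged B, with no rise at the last step. Ctla2a stood at 526, 453 and 368 CPM in aged A, and at 480, 443 and 476 CPM in aged B, where it did not fall further.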
